A study of Mus musculus with 2 samples.

Results

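The urokinase system of the macrophage surface, its serpin inhibitors, the matrix protein gene Thbs1 and the transcription factor gene Ets2 were described here by their signals on 2 arrays. The 7 genes are Plau, Plat, Plaur, Serpinb2, Serpine2, Thbs1 and Ets2, chosen by name with earlier results of these data known. Every probe set annotated to exactly 1 of them was used. This gave 11 probe sets for 6 of the 7 genes, out of 34958 probe sets with 1 gene symbol for 18194 genes. No probe set was listed for Serpine2, which encodes protease nexin-1, an inhibitor of urokinase and thrombin, so it was not analysed here. A probe set listed for both Pald1 and Thbs1 fell outside the rule and is given apart.

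The first array held RNA of thioglycolate-elicited peritoneal macrophages kept for 12 h with 100 ng/ml CSF1, and the second held RNA of such cells kept as control for the same time without it. Thioglycolate medium is an irritant that draws inflammatory macrophages into the peritoneal cavity, from which they are recovered by lavage. All cells came from male wild type C57BL6 mice of 8 weeks and were treated at 80% confluence in medium with serum. CSF1 is the main growth and survival factor of macrophages and acts through the receptor Csf1r. The comparison asks how the expression of these genes differed after 12 h with the factor. Each group is a single array, so there is no replicate check and no test, and their number limits the precision. Whether the samples shared animals is not stated in the labels. In RNA of a whole culture, fewer cells of a type and less RNA per cell cannot be told apart.

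Plasmin, made from plasminogen by the urokinase protease (Plau) or the tissue-type activator (Plat), digests fibrin and matrix and opens the way for migrating cells. The receptor uPAR (Plaur) holds urokinase at the cell surface, and serpins such as PAI-2 (Serpinb2) block the activators. Thrombospondin-1 (Thbs1) is a secreted matrix glycoprotein that binds Cd36 and Cd47 and can activate latent TGF-beta. Ets2 is a transcription factor downstream of Ras and MAP kinase signalling, which CSF1 turns on in macrophages, and ETS and AP-1 sites are known elements of the urokinase gene's enhancer.

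The start regions of Serpinb2 and Plaur are shown because both genes had lower signals with CSF1, by 1.88-fold and only 1.24-fold. A further reason is that AP-1, which pairs with ETS factors, is a known regulator of this system. RefSeq promoter sequences on GRCm38.p6 were found for 4 of the 7 genes, and not for Thbs1, Plau and Plat. The printed runs are the 250 bases before the start site, 5′ to 3′ on the gene's strand, and for Serpinb2, which has 2 listed starts, before the more upstream one. Capitals mark matches, on either strand, to an AP-1 motif (TGANTCA), a CRE-like motif (TGACNTCA), a PEA3-type ETS motif (AGGAAG) or a TATA box (TATAAA).
Serpinb2, chr1:107511173-107511422, plus strand: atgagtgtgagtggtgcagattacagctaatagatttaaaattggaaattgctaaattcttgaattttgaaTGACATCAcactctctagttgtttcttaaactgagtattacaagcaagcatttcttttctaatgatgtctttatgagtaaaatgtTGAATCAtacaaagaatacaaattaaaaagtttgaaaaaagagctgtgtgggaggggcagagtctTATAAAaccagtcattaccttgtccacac
Plaur, chr7:24462233-24462482, plus strand: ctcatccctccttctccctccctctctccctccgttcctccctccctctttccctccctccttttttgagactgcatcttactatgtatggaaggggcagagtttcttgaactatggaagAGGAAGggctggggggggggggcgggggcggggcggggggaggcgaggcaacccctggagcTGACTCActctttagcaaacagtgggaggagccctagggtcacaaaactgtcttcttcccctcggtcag
The Serpinb2 run held the AP-1 match TGAATCA starting 94 bases before the start site, the CRE-like match TGACATCA starting 179 bases before it, and a TATAAA starting 29 bases before it. The Plaur run held the AP-1 match TGACTCA starting 69 bases before the start site and an AGGAAG starting 130 bases before it. No match overlapped another. Among 32851 promoter windows of the same length, 6.75% held the AP-1 motif, 7.49% the CRE-like motif, 29.5% AGGAAG and 12.4% TATAAA. The Ets2 window held none of these letters, and the Serpine2 window held 1 AGGAAG. A match is a description of the letters and not evidence of binding, and any part of these motifs in the lower signals was not tested. The GC content was 32.4% in the Serpinb2 run and 59.6% in the Plaur run, beside a median of 52.4% over all windows.

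The signals are in the linear units of the deposited table, whose trimmed mean is 500.0 on both arrays. Signals up to 172.13 units, the 90th percentile of genes typical of other tissues, were taken as background, and 37.1% of probe sets were above it on the CSF1 array and 38.2% on the control array. A gene counted as measured when its brightest probe set passed this level on at least 1 array, which held for 10205 genes. Their median log2 ratio of CSF1 over control was 0.01. For the 9033 genes above background on both arrays, the central 95% of log2 ratios ran from -0.69 to 0.71. The 18 probe sets of the hybridisation spikes averaged -0.29 ± 0.13 (log2 ratio, SD). Signal at the 3′ end over that at the 5′ end, a sign of RNA integrity, was 1.40 with CSF1 and 1.03 in control for Gapdh, and 1.38 with CSF1 and 1.35 in control for Actb.

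Of the 7 genes, 5 were measured. Thbs1 and Serpinb2 were lower on the CSF1 array by about the same factor, 2.16-fold and 1.88-fold. Plaur was 1.24-fold lower, and Plat and Ets2 were 1.28-fold and 1.30-fold higher. Of the 5 measured genes, 1 was at least 2-fold lower and 0 at least 2-fold higher, where 0.519% of all measured genes were at least 2-fold lower and 0.706% at least 2-fold higher. At 1.5-fold, 2 of the 5 were lower and 0 higher, where 4.33% of all measured genes were lower and 5.03% higher. The median log2 ratio of the 5 was -0.31, with 3 below 0 and 2 above. It was -0.04 with a lower background level or none, where Plau enters as another gene. None was 3-fold away in either direction, where 0.098% of all measured genes were. Because the genes were chosen with earlier results of these data known, these counts and shares are a description and not a test.

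**Figure D1:**
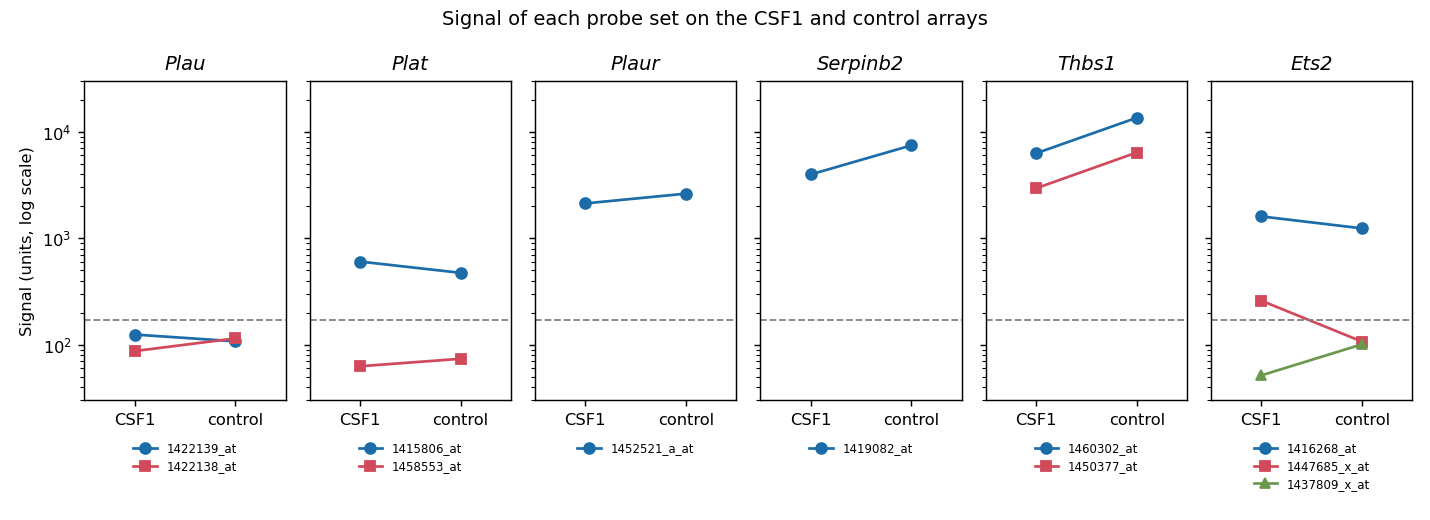
Signal of every probe set on the CSF1 array (left of each panel) and the control array (right), in array units on a log axis; lines join the 2 values of a probe set, each of 1 array, and the dashed line is the background level of 172.13 units. Both Thbs1 probe sets and the Serpinb2 probe set slope up towards control, while both Plau probe sets lie under the background level on both arrays.

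The activators come first. Plau, the gene of urokinase itself, was not above background on either array. Its probe sets 1422139_at and 1422138_at gave 124.5 and 87.1 units on the CSF1 array, against 107.5 and 114.5 units on the control array. The first was higher with CSF1 and the second lower, all 4 values lay under the background level, and no fold is given. Plat gave 603.7 units on the CSF1 array, against 473.0 units on the control array, on probe set 1415806_at, a log2 ratio of 0.35. Its other probe set, 1458553_at, was under the background level on both arrays, with 62.7 units with CSF1 and 73.7 units in control. The higher signal of Plat therefore rests on 1 probe set, and 14.4% of measured genes had a higher ratio. It lay inside the central 95% of all ratios.

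The receptor gene Plaur had 1 probe set, 1452521_a_at, with 2124.2 units on the CSF1 array, against 2625.2 units on the control array. Its log2 ratio was -0.31, and 15.5% of measured genes had a lower one. The ending of the name marks a probe set that can match several transcripts. The signal was well above background on both arrays and the difference was about as large as the pooled SD between probe sets of 1 gene, 0.27 on the log2 scale over 3486 genes. Centred on the hybridisation spikes, Plaur stood at -0.01, where the median of all measured genes stood at 0.29.

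The inhibitor gene Serpinb2 encodes PAI-2, a serpin of activated macrophages that blocks urokinase and is also found inside cells. Its only probe set, 1419082_at, gave 3972.6 units on the CSF1 array, against 7457.9 units on the control array, a log2 ratio of -0.91. Only 0.823% of the 10205 measured genes had a lower ratio, and Serpinb2 was number 85 from the lowest. Its signal lay in the brightest 10% of measured genes, where ratios spread less than near background. Of the 1021 genes there, 8, or 0.784%, were at least 1.5-fold lower, Serpinb2 and Thbs1 among them.

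Thbs1 showed the largest difference of the 5 measured genes by their brightest probe sets. Probe set 1460302_at gave 6275.8 units on the CSF1 array, against 13552.5 units on the control array, and probe set 1450377_at gave 2943.8 units against 6391.2 units. Both were lower with CSF1, by 2.16-fold and 2.17-fold, and the log2 ratios of -1.11 and -1.12 had an SD between probe sets of 0.0055. This SD covers neither cultures nor animals. The probe set listed for both Pald1 and Thbs1 gave 7038.2 units with CSF1 and 12016.8 units in control, 1.71-fold lower. Thbs1 was number 32 from the lowest among measured genes, with 0.304% of them below it. In the brightest 10% it was the 1 gene of 1021, or 0.0979%, that was at least 2-fold lower.

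**Figure D2:**
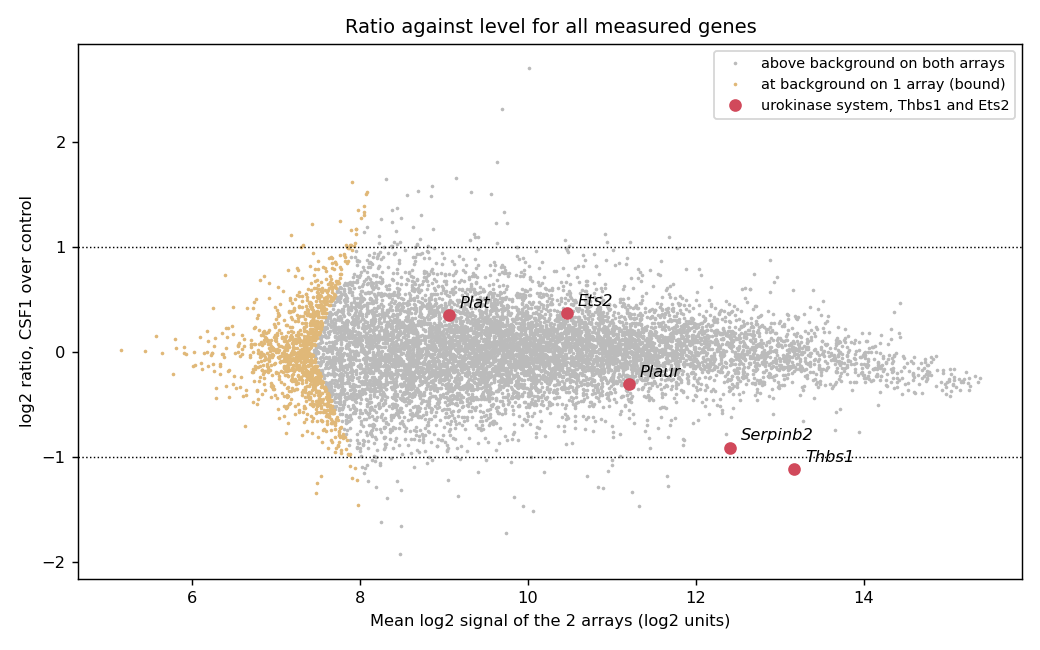
Log2 ratio of CSF1 over control against the mean log2 signal of both arrays for the 10205 measured genes, each by its brightest probe set; dotted lines mark 2-fold, and orange points are genes at background on 1 array, whose ratio is a bound. Thbs1 at -1.11 and Serpinb2 at -0.91 lie below nearly all genes of their level, while Plat, Ets2 and Plaur lie among the other genes.

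Ets2 gave 1603.5 units on the CSF1 array, against 1238.0 units on the control array, on its brightest probe set 1416268_at, a log2 ratio of 0.37. On probe set 1447685_x_at it gave 258.9 units with CSF1 and 106.8 units in control, which is under background, so this probe set was at least 1.50-fold higher. The third, 1437809_x_at, was under background on both arrays, with 51.5 units with CSF1 and 100.8 units in control. The 2 probe sets that were measured were both higher with CSF1, and the names of the dim pair mark them as open to cross-hybridisation. Of all measured genes, 13.2% had a higher ratio than Ets2.

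Counted over probe sets, 7 of the 11 were measured. Of these, 2 were at least 2-fold lower and 0 at least 2-fold higher, where 0.672% of 16665 measured probe sets were at least 2-fold lower and 0.732% at least 2-fold higher. Both belong to Thbs1, so they are 1 gene and not separate observations. At 1.5-fold 3 were lower and 1 was higher, beside 5.06% of all measured probe sets lower and 5.06% higher, and at 3-fold there were 0, beside 0.096% in either direction.

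**Figure D3:**
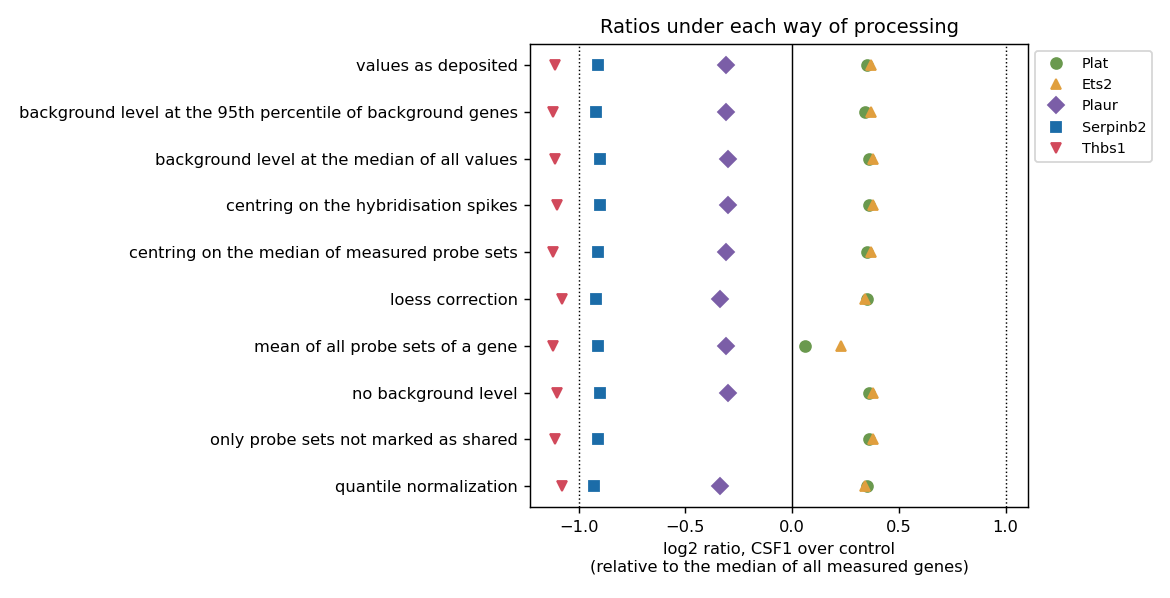
Log2 ratio of CSF1 over control for the 5 measured genes under 10 ways of processing the same 2 arrays, each less that setting's median over all measured genes (values as deposited in the top row); dotted lines mark 2-fold. Thbs1 stays between -1.12 and -1.08 and Serpinb2 between -0.93 and -0.90, while Plat drops to 0.06 when all its probe sets are averaged.

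Other genes of plasminogen activation and fibrinolysis, listed together with further serpin genes, went both ways. Of 16 genes in the list, 15 had a probe set and 7 were measured. Their median log2 ratio was 0.31, with 5 above 0, 2 below and none past 2-fold. Serpinb6a, Serpinb8 and Serpinb9, at 0.19, 0.43 and 0.44, are serpin genes not specific to plasminogen activation, so the median describes this mixed list only. The complement and contact-system inhibitor gene Serping1 was 1.67-fold higher, with 8542.4 units with CSF1 and 5110.3 units in control. The intracellular serpin genes Serpinb9, an inhibitor of granzyme B, and Serpinb8 were both 1.35-fold higher, and Serpini1, which encodes the activator inhibitor neuroserpin, was 1.24-fold higher. Serpinb2 was lower and these 4 serpin genes were higher, each by its brightest probe set. St14, a membrane protease that can activate urokinase, and Hgf, a growth factor of the plasminogen family, had log2 ratios of -0.29 and -0.31. With no background level, 8 of the 15 genes were above 0 and 7 below, with a median of 0.11. The substrate gene Plg, made by the liver, stood at 9.2 units with CSF1 and 10.0 units in control, under background on both arrays.

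Genes for surface binding and uptake of plasminogen and urokinase were mostly a little lower. Of 18 fixed, 15 were measured, 3 above 0 and 12 below, with a median of -0.20 and none at least 1.5-fold away. Lrp1, the endocytic receptor that clears urokinase with its inhibitor, was 1.42-fold lower, with 1919.3 units with CSF1 and 2728.4 units in control. The plasminogen receptor subunit gene S100a10 was 1.33-fold higher; its 2 bright probe sets averaged 0.39 ± 0.04 (log2 ratio, SD), while a dim one had a bound of -0.66, with 152.5 units with CSF1 and 272.0 units in control. The collagen uptake receptor gene Mrc2 was at least 1.44-fold higher and the integrin gene Itgb5 1.22-fold lower. With the arrays centred on the spikes, 14 of the 15 were above 0, so the direction of this list holds only relative to the other genes.

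Around Thbs1, the paralog Thbs2, also a secreted matrix glycoprotein, had the opposite sign. On its brightest probe set Thbs2 gave 865.4 units with CSF1 and 659.5 units in control, 1.31-fold higher. The 3 probe sets of Thbs2 were all higher with CSF1 and averaged 0.83 ± 0.57 (log2 ratio, SD). The receptor genes Cd36 and Cd47 had log2 ratios of -0.06 and -0.15. Of the 16 genes fixed for thrombospondins, their receptors and partners, 12 were measured. By brightest probe sets they had a median of -0.08, with 5 above 0, 7 below and none past 2-fold. Centred on the spikes, 13 were measured, 11 above 0 and 2 below, with a median of 0.20. Tgfb3, a TGF-beta ligand, was 1.47-fold higher, the laminin receptor subunit gene Itga6 was 1.32-fold lower, and Ltbp1, which stores latent TGF-beta in the matrix, was at least 1.30-fold lower.

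Among 13 coagulation genes, 11 were measured, with a median of -0.20, 3 above 0 and 8 below. F13a1, the fibrin-crosslinking factor XIII subunit gene of macrophages, was 2.26-fold lower, with 2145.2 units with CSF1 and 4850.9 units in control, the 1 gene of the list past 2-fold. The factor genes F5 and F10 were 1.39-fold and 1.34-fold lower, and Procr, the protein C receptor gene, was 1.24-fold higher. Centred on the spikes, this list's median stood at 0.09.

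The relatives of Ets2 went both ways. Of 18 ETS genes fixed, 13 were measured, 5 above 0 and 8 below, with a median of -0.16, and of 0.13 when centred on the spikes. Spi1, which encodes the macrophage lineage factor PU.1, was 1.32-fold higher, close to Ets2 itself, and Etv5 was 1.20-fold higher, with a log2 ratio of -0.03 on its other measured probe set. Elk4, a serum response partner, was 1.54-fold lower by the brightest of its probe sets and stood at -0.09 (log2) by another, and Ets1 was 1.32-fold lower. Of 7 AP-1 subunit genes, 6 were measured, 3 above 0 and 3 below, with a median of -0.14, and of 0.15 when centred on the spikes. Fosl2 was 1.53-fold lower, with a log2 ratio of 0.04 on its other probe set, Jun was 1.31-fold lower, with 0.17 on its other one, Junb was 1.28-fold lower and Jund 1.24-fold higher.

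**Figure D4:**
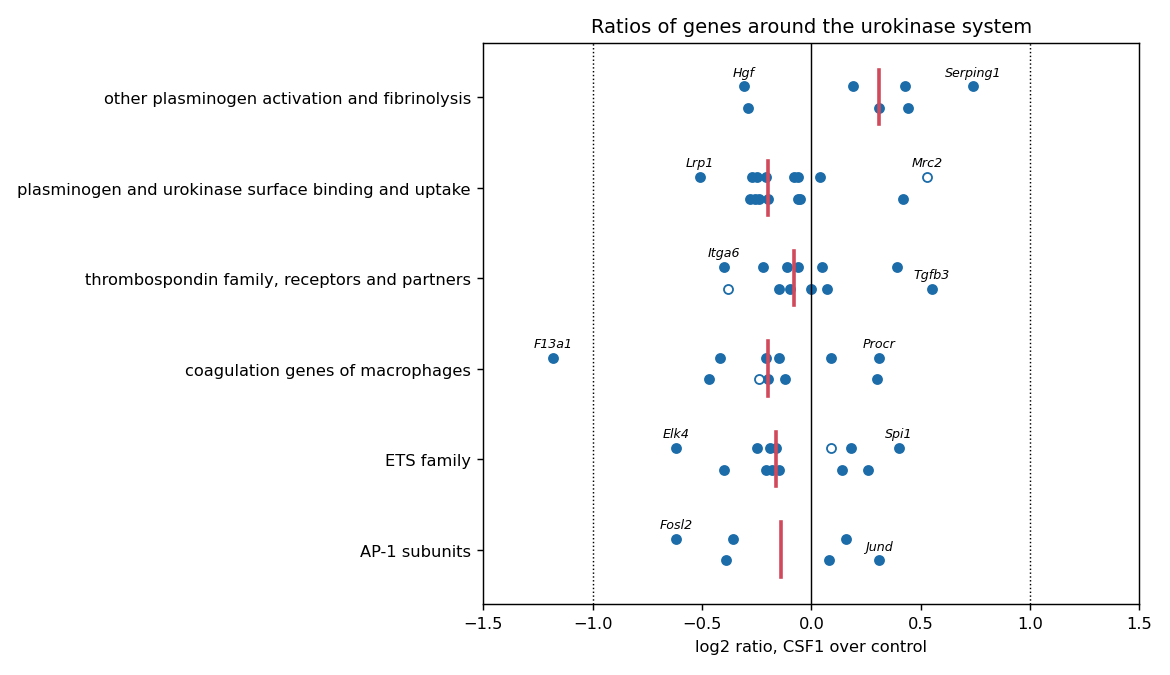
Log2 ratio of CSF1 over control for each measured gene of 6 lists around the urokinase system, 1 row per list; open points are bounds of genes at background on 1 array, red bars are list medians, and dotted lines mark 2-fold. By brightest probe sets, F13a1 at -1.18 is the 1 gene past 2-fold, and the medians lie between -0.20 and 0.31.

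Markers of cell types that could be in a peritoneal culture are given beside these results. All 10 macrophage markers were measured, 2 above 0 and 8 below, with a median of -0.16 and summed signals of 139767 units with CSF1 and 164913 units in control. Centred on the spikes, 6 were above 0 and 4 below, with a median of 0.13. Quantile normalization gave 3 above 0 and 7 below, with a median of -0.08. The largest difference was that of the apoptotic cell receptor gene Mertk, 1.68-fold lower. Of 11 markers of fibroblasts and mesothelium, 8 were measured. By brightest probe sets all 8 were above 0, with a median of 0.26. Summed signals over the 11 were 64692 units with CSF1 and 51082 units in control. Centred on the spikes, 9 were measured, 9 above 0 and 0 below, with a median of 0.52. When each marker's probe sets were averaged instead, 6 were above 0 and 2 below, with a median of 0.23. The 2 probe sets of Col1a1 averaged -0.06 ± 0.26 (log2 ratio, SD). With no background level, 10 markers were above 0 and 1 below. Pdgfrb was 1.71-fold and Dcn 1.51-fold higher, while Msln, Upk3b and Krt19 were under background on both arrays. Dim markers also found in mesothelium were just above it, Wt1 with 195.3 units with CSF1 and 174.8 units in control, and Krt8 with 208.5 units with CSF1 and 202.6 units in control. Their part in the results for Thbs1, Serpinb2, Plat, Thbs2 and the other genes was not tested.

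Platelets carry thrombospondin-1, and 4 of 7 platelet markers were under background on both arrays, among them Ppbp, Gp9 and Gp6. Pf4, which macrophages also express, had a log2 ratio of -0.24, with 6901.5 units with CSF1 and 8130.4 units in control. Itga2b stood at 0.09 and Treml1, at background in control, had a bound of 0.17, so 2 of the 3 measured were above 0, with a median of 0.09, and of -0.24 over all 7 with no background level. Of 7 endothelial markers, 3 were measured, 2 of them as bounds, with a median of -0.36, 1 above 0 and 2 below. With no background level the endothelial median was 0.45, with 5 above 0 and 2 below. The mast cell markers Tpsb2, Cma1 and Cpa3 had log2 ratios of -0.43, -0.42 and -0.20, with summed signals over 5 markers of 2237 units with CSF1 and 2586 units in control. Of 6 neutrophil markers with a probe set, S100a8 alone was measured, at 0.18. The name of its probe set marks one that can match several transcripts. S100a9 was under background on both arrays, with 42.4 units with CSF1 and 8.2 units in control. Of 4 eosinophil markers with a probe set, Siglecf alone was measured, with a bound of -0.03. The part of these cells in the results was not tested.

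**Figure D5:**
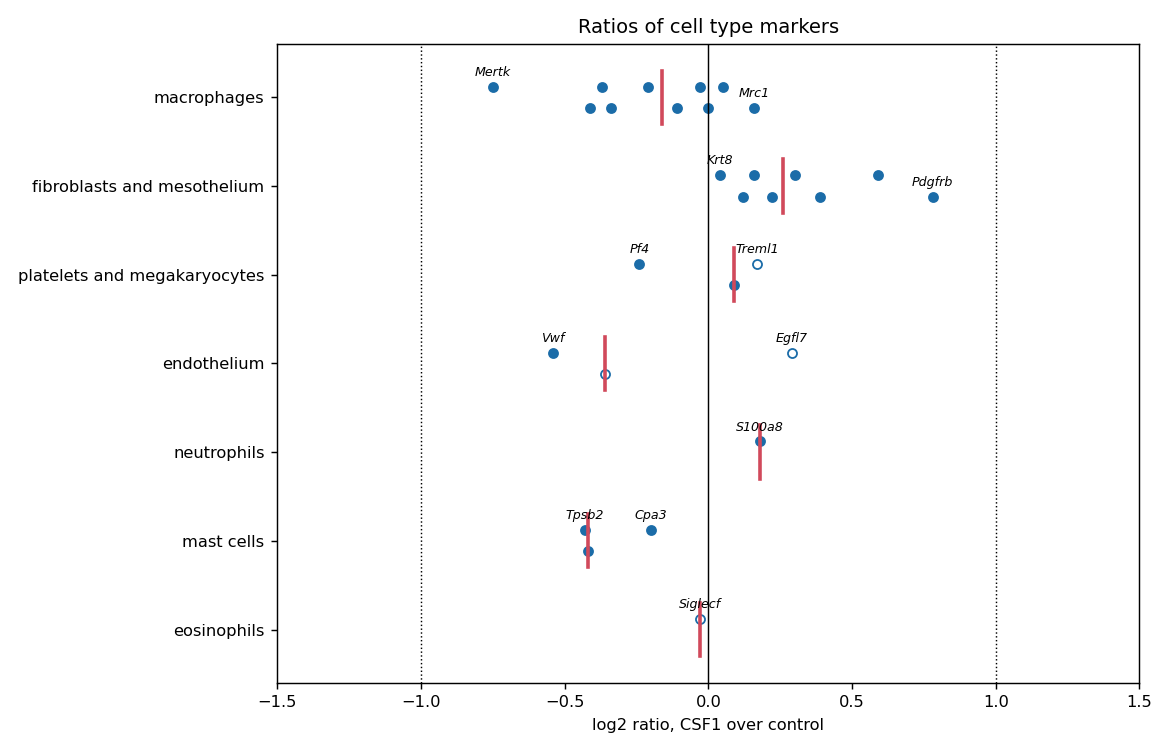
Log2 ratio of CSF1 over control for each measured marker of 7 cell types, 1 row per type, with open points for bounds, red bars for medians and dotted lines at 2-fold. By brightest probe sets, markers of fibroblasts and mesothelium lie at or above 0.04, and those of macrophages between -0.75 and 0.16.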

How the data were processed

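Affymetrix Mouse Genome 430 2.0 arrays measured RNA of 1 CSF1 sample and 1 control sample. The deposited table holds linear intensity values that the authors produced in GeneSpring 6.2, per the series' design text; how probes were summarized is not stated there. After trimming 2% at both ends the arrays had equal means, and no scaling was added.

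Names came from the platform annotation: 34754 of the 34958 single-symbol probe sets matched RefSeq by Entrez ID, and 0 symbols differed; 932 with several symbols and 9211 with none were left out. A gene was read by its brightest probe set (mean log2). Background was the 90th percentile over 89 genes typical of other tissues (147 probe sets; 98 genes written down), some of them well above it. Lower values were raised to it, and ratios against them are bounds. No p-value was computed.

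The members, the 6 lists and the 7 marker lists were chosen with earlier results of these data known, and the background genes with the value table at hand. Named were all members, Plg and up to 4 genes per list with the largest ratios in size; Cd36, Cd47, St14, Hgf and single markers were named after their values were seen. With 2 arrays a pattern is 1 ratio, so ranks replace likeness. One listed gene is not reported here. The steps were tested on simulated data, with planted differences larger than those of the members, in genes well above background. Planted differences of the members' size were not covered. Alternatives were 4 scalings (quantile, median, loess with span 0.3, spikes), 3 background levels, 2 ways of reading a gene, and thresholds of 1.5-fold and 3-fold. Software was Python 3.11.15 with scipy 1.17.1, numpy 2.4.6, statsmodels 0.14.6, pandas 2.3.3 and, for figures, matplotlib 3.10.9.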

Additional observations from a re-analysis of the deposited data

How the results depend on the processing

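Each value here is less the all-gene median of its own setting; that median moved by over 0.1 only with centring on the hybridisation spikes, to 0.29. Under the 9 alternatives that change scaling, background or probe sets, Thbs1 stayed between -1.12 and -1.08 and Serpinb2 between -0.93 and -0.90 on the log2 scale. Plaur, under the 8 of them that give it a value, stayed between -0.34 and -0.30, Ets2 between 0.23 and 0.38, and Plat between 0.06 and 0.36. Without taking off the shifted median, centring on the spikes put Thbs1 at -0.82 and Serpinb2 at -0.61, which leaves 0 genes at least 2-fold lower. The mean of all probe sets of Plat, 0.06, takes in its probe set under background.

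Thbs1 was the 1 gene at least 2-fold lower under all 9 of these. With a threshold of 1.5-fold, 2 genes were lower, and with 3-fold 0. The count of probe sets at least 2-fold lower was 2 under all 9 but the mean of probe sets, which has no such count, and 0 at 3-fold. The count of probe sets at least 2-fold higher became 1, the dim Ets2 probe set 1447685_x_at, with the background at 96.53 units, the median over the whole table, or with none, and 1 at the 1.5-fold threshold. The median over measured genes was -0.04 with both of the lower background levels, under which Plau enters as a sixth gene. No paired analysis was possible because each group has 1 array. The arrays' background limits what can be said of Plau, which had no value above it.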
